A study of Xenopus laevis with 3 samples.

Results

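Wnt ligands, their receptors and the genes that carry or restrain their signal were examined in *Xenopus laevis* embryos whose cells had been depolarized by an injected ion channel. Members were taken by gene symbol. They are the probe sets with a single platform symbol that names a Wnt ligand, a Frizzled receptor, an LRP coreceptor, a secreted or membrane-bound modulator, a Dishevelled, destruction complex or casein kinase 1 gene, a TCF/LEF factor or its cofactors, an SP5 gene or a core gene of planar cell polarity. The rule also took in the symbol tcf3, which RefSeq gives to the E2A factor and not to a TCF/LEF factor. The list of secreted modulators is not complete, and those outside it were not analysed here. This gave 127 probe sets of 82 symbols, or 65 genes when the L and S copies (homeologs) of the duplicated *X. laevis* genome are joined, among 15495 probe sets with 1 symbol and 32539 on the array without its controls.

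Each of 3 conditions was measured once, on an Affymetrix GeneChip for *X. laevis* (Genome 2.0 design) with total RNA of 50 pooled whole embryos at stage 11, the mid-gastrula. GlyR+IVM embryos carried injected mRNA for a glycine-gated chloride channel and were kept in its opener drug ivermectin, which the methods name and the sample labels do not. DN-KATP embryos carried injected mRNA for a dominant-negative ATP-sensitive potassium channel, labelled 666 chimera. Control embryos were injected with water. The mRNA, at 1 to 2 ng per injection, went into the animal pole, at the 4-cell stage by the labels and at the 1-cell stage by the methods. The Control pool is described with neither mRNA nor drug, so effects of the mRNA, of ivermectin and of depolarization cannot be told apart. With 1 array per condition there is no replicate check, so no error, test or p-value is given. Both ratios to Control share the Control array, and any error in it enters both.

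In the canonical branch, a Wnt ligand binds Frizzled and LRP5/6, Dishevelled is recruited, the axin, APC, GSK3 and casein kinase 1 complex stops marking beta-catenin for destruction, and beta-catenin enters the nucleus to act with TCF/LEF factors. In the planar polarity branch, ligands such as Wnt5 and Wnt11 act through Frizzled, Ror2, Vangl and Prickle on the cytoskeleton without beta-catenin. In the frog, maternal beta-catenin marks the dorsal side before gastrulation, zygotic Wnt8 acts on ventral and lateral mesoderm and on posterior neural fate during gastrulation, and the polarity branch drives convergent extension.

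Values are linear MAS 5.0 signals, and a log2 ratio to Control, where one is given, stands in brackets after the signal of a depolarized array. The median over all probe sets was 96.7 in GlyR+IVM, 101 in DN-KATP and 92.7 in Control. The members' median was 294 in GlyR+IVM, 289 in DN-KATP and 278 in Control, and the members at a signal of at least 40 numbered 97 in GlyR+IVM, 95 in DN-KATP and 92 in Control, of 127. A probe set was compared when the mean of its 3 signals was at least 40, which left 95 members (64 symbols) of 21143 probe sets. Sums of germ layer markers differed between the arrays: over 9 probe sets each, mesoderm markers summed to 24950 in GlyR+IVM, 23777 in DN-KATP and 30152 in Control, and endoderm markers summed to 7816 in GlyR+IVM, 8562 in DN-KATP and 5912 in Control. Neural ectoderm markers (9 probe sets) summed to 47408 in GlyR+IVM, 55859 in DN-KATP and 52010 in Control, and epidermal markers (5 probe sets) summed to 11043 in GlyR+IVM, 12824 in DN-KATP and 13331 in Control. These sums are carried by the brightest probe sets. In GlyR+IVM 5 of 9 neural probe sets were above Control although the sum was lower. They belonged to sox2.L and gmnn, while those of zic1.S and sox3 were below Control. In DN-KATP 3 of 5 epidermal probe sets were above Control although the sum was lower. All 3 belonged to grhl1.L (log2 ratios 0.70 to 0.96), and both tfap2a homeologs were below Control (-0.07 and -0.11). Among genes of later tissues, the insulin probe sets were under the floor and actc1.L, a muscle actin, had 2361 in GlyR+IVM, 1386 in DN-KATP and 939 in Control on 1 probe set. The part of these shifts in the Wnt values below was not tested, and in whole embryos fewer cells of a type and less RNA per cell cannot be told apart.

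No member was at least 2-fold higher in both depolarized arrays, where 1.64% of all probe sets compared were, and none was at least 2-fold lower in both, where 0.497% were. A ratio counted only when the higher of its 2 signals was at least 40. In GlyR+IVM, 3 of 95 members were at least 2-fold above Control (fzd5.S, wnt3a.S and wnt5a.S, 3.16%, against 3.62% of all probe sets) and 1 was at least 2-fold below (dvl3.L, 1.05%, against 2.27%). In DN-KATP, 1 member was at least 2-fold above (csnk1g3.L, 1.05%, against 4.22%) and 0 were below (against 2.2%). Between the depolarized arrays, fzd5.S was at least 2-fold higher in GlyR+IVM than in DN-KATP (1 of 95, against 2.52%) and dvl3.L at least 2-fold lower (1 of 95, against 3.39%). fzd5.S reached the mean of 40 only through GlyR+IVM, so it could count only as higher there. These shares were near or under those of the array as a whole.

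At 1.5-fold, the members higher in both depolarized arrays were wnt5a.S and tle4.S (2 of 95, against 5.49% of all probe sets), and 0 were lower in both (against 2.4%). In GlyR+IVM, 4 were higher (against 10.7%) and 2 lower (against 8.05%). In DN-KATP, 6 were higher (against 13.1%) and 3 lower (against 7.78%). GlyR+IVM was at least 1.5-fold above DN-KATP for 4 members (against 8.11%) and below it for 4 (against 11.2%). Most members lay close to Control: GlyR+IVM was within 1.25-fold of it for 66 of 95 (69.5%, against 57.8% of all probe sets compared), and DN-KATP for 64 (67.4%, against 55.5%). Among compared probe sets with a single symbol outside the members, the shares were 61.2% for GlyR+IVM and 59.0% for DN-KATP. Members had higher signals than the array as a whole, and ratios were smaller at high signals. The part of signal in these shares was not tested.

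By branch, the 50 canonical probe sets had a median log2 ratio to Control of 0.10 for GlyR+IVM and 0.14 for DN-KATP, with 30 and 38 above 0. These include 8 probe sets of tcf3, the E2A factor. Without tcf3, the 42 left had medians of 0.14 for GlyR+IVM and 0.11 for DN-KATP, with 26 and 30 above 0. The 15 planar polarity probe sets (Wnt5, Wnt11, Prickle, Vangl and Ror2) had medians of 0.19 for GlyR+IVM and 0.17 for DN-KATP, with 11 above 0 in each array. The 30 probe sets of genes that serve both branches (Frizzled, Dishevelled and casein kinase 1) had medians of -0.05 for GlyR+IVM and 0.04 for DN-KATP, with 12 and 17 above 0. The median over all probe sets was 0.01 for GlyR+IVM and 0.04 for DN-KATP, with 50.9% and 54.2% above 0. Over compared probe sets with a single symbol outside the members it was -0.01 in each array, with 48.5% and 48.6% above 0. The SD of the single members' log2 ratios was 0.36 (GlyR+IVM) and 0.33 (DN-KATP), and differences between the branches were not tested. With the arrays scaled to their spike-ins, the medians of the canonical, planar polarity and both-branch probe sets were all below 0. That scaling moved the median of all probe sets to -0.42 (GlyR+IVM) and -0.41 (DN-KATP). Relative to all probe sets, the planar polarity median was then 0.18 for GlyR+IVM and 0.13 for DN-KATP, and the canonical median 0.06 (GlyR+IVM) and 0.09 (DN-KATP). This scaling multiplies each array by a single factor, so such differences can change only through probe sets near the floor. Ratios and directions below are those of the deposited scaling, and the spike-in scaling would lower all of them by about the amount it moved the array.

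**Figure D1:**
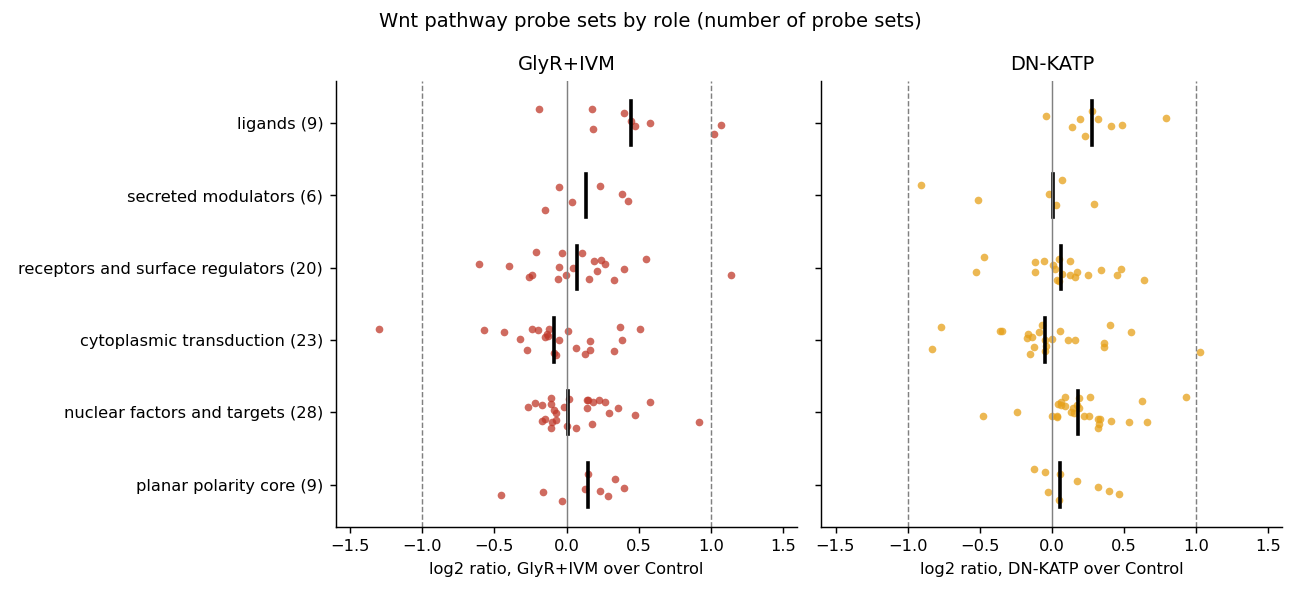
Log2 ratio to Control of the 95 compared Wnt pathway probe sets, by role, in GlyR+IVM (left) and DN-KATP (right). Each point is a probe set, black bars are medians and dashed lines mark 2-fold. The 9 ligand probe sets have medians of 0.45 (GlyR+IVM) and 0.28 (DN-KATP), the 23 cytoplasmic ones of -0.09 (GlyR+IVM) and -0.05 (DN-KATP), and 26 of 28 nuclear ones lie above 0 in DN-KATP.

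Wnt ligands lay above Control in both depolarized arrays more often than not, although with the spike-in scaling their DN-KATP median was below 0 (-0.18). Of 9 ligand probe sets compared, 8 were above Control in GlyR+IVM, 8 in DN-KATP and 7 in both, with median log2 ratios of 0.45 (GlyR+IVM) and 0.28 (DN-KATP). For comparison, 50.9% of all probe sets were above Control in GlyR+IVM, 54.2% in DN-KATP and 35.8% in both. Among those with a single symbol outside the members, 31.7% were above it in both. With no floor, 11 of 18 ligand probe sets were above Control in GlyR+IVM (median 0.29), 15 in DN-KATP (median 0.37) and 10 in both. A floor of 100 left 4, all above Control in both, with medians of 0.44 (GlyR+IVM) and 0.34 (DN-KATP). Relative to the median of all probe sets, the ligand median was 0.44 for GlyR+IVM and 0.23 for DN-KATP. The spike-in scaling, with a single factor per array, left these nearly unchanged by construction (0.44 for GlyR+IVM and 0.24 for DN-KATP). With quantile normalization they were 0.43 for GlyR+IVM and 0.25 for DN-KATP. The spike-in scaling put 5 of the 9 above 0 in GlyR+IVM and 2 of them in DN-KATP. Only wnt3a.S and wnt5a.S passed 2-fold, in GlyR+IVM alone, and neither did so when arrays were quantile normalized.

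Among the canonical ligands, wnt8a.L, the zygotic ligand of ventral and lateral mesoderm, had 3212 in GlyR+IVM (0.47), 2805 in DN-KATP (0.28) and 2313 in Control. Its order was GlyR+IVM, then DN-KATP, then Control, at a signal where the median size of the log2 ratio over all probe sets was 0.20 in each array. The 90th percentile there was 0.54 for GlyR+IVM and 0.58 for DN-KATP, above the ratios of wnt8a.L. wnt3a.S, a ligand of posterior neural and tailbud tissue at later stages, had 139 in GlyR+IVM (1.02), 78.2 in DN-KATP (0.19) and 68.3 in Control. Here GlyR+IVM stood apart and DN-KATP was close to Control. wnt8b.S, known for its place in the forming brain, had 100.4 in GlyR+IVM (0.45), 92.2 in DN-KATP (0.32) and 73.7 in Control. Probe sets for wnt1, wnt2b, wnt4, wnt6 and wnt7b were under the floor of 40 in the mean and were not compared.

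Of the planar polarity ligands, wnt11b.L, a maternal transcript that is also made in the gastrula, where it acts in convergent extension, had 5471 in GlyR+IVM (0.18), 5671 in DN-KATP (0.23) and 4844 in Control. wnt11.S had 225 in GlyR+IVM (0.58), 200.1 in DN-KATP (0.41) and 150.5 in Control. wnt5b.S, a ligand that acts largely without beta-catenin, had 1058 in GlyR+IVM (0.40), 1124 in DN-KATP (0.48) and 803 in Control. In all 3 genes both depolarized arrays were above Control and close to each other. wnt5a.S, a ligand of Ror2, had 80.1 in GlyR+IVM (1.07), 65.8 in DN-KATP (0.79) and 38.0 in Control. The probe sets of the symbol wnt5a-a did not share this: 1 had 87.1 in GlyR+IVM, 74.5 in DN-KATP and 76.6 in Control, and the other had 49.7 in GlyR+IVM, 62.5 in DN-KATP and 56.6 in Control. Thus the excess of wnt5a rested on 1 of 3 probe sets, that with a Control signal just under the floor.

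**Figure D2:**
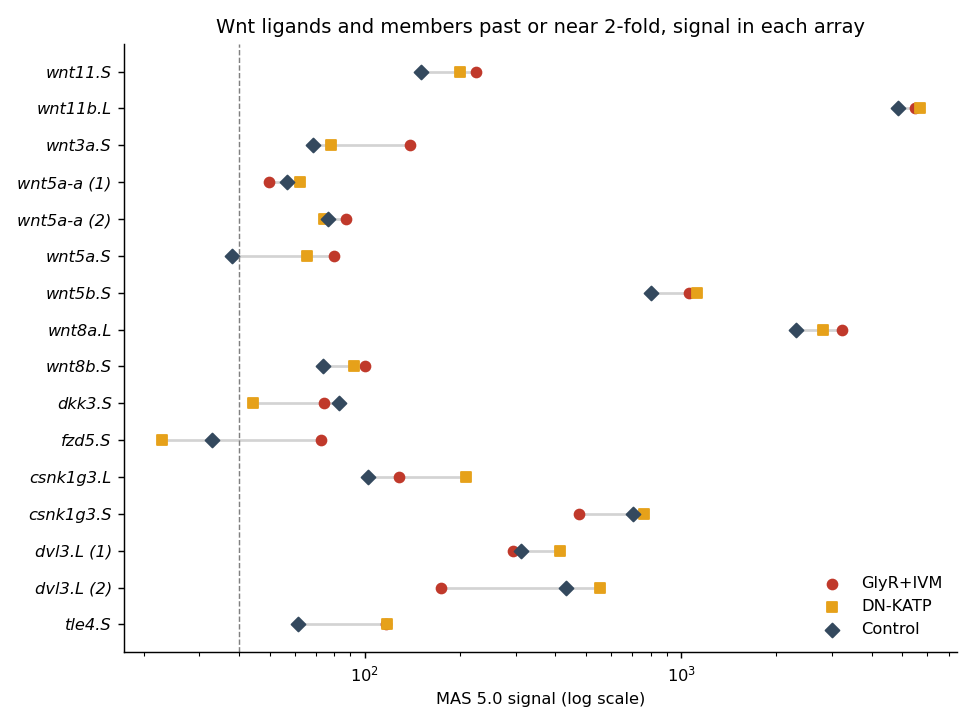
MAS 5.0 signal (log scale) of the compared Wnt ligand probe sets and of other members past or near 2-fold, in GlyR+IVM (circles), DN-KATP (squares) and Control (diamonds); numbers in brackets tell probe sets of a symbol apart and the dashed line marks a signal of 40. For wnt8a.L, wnt11.S, wnt3a.S, wnt5a.S and wnt8b.S the order is GlyR+IVM, DN-KATP, Control from high to low; for tle4.S the GlyR+IVM point lies under that of DN-KATP.

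Secreted modulators showed no common direction. Over 6 probe sets the medians were 0.14 for GlyR+IVM and 0.01 for DN-KATP, with 4 and 3 above 0. The GlyR+IVM median was 0.29 with no floor and 0.31 with a floor of 100. The DN-KATP median was -0.12 with a common median and -0.27 without probe sets whose names end in _s_at, _x_at or _a_at. sfrp1.L, a soluble protein with a Frizzled-like domain that binds Wnt ligands, had 3060.1 in GlyR+IVM (0.39), 2309 in DN-KATP (-0.02) and 2338 in Control. Its other probe set had 2282 in GlyR+IVM (0.43), 1734 in DN-KATP (0.03) and 1695 in Control, so both were higher in GlyR+IVM alone. sfrp2.S, of the same family, had 841 in GlyR+IVM (0.23), 753 in DN-KATP (0.07) and 718 in Control. rspo2.L, an R-spondin, which keeps Wnt receptors at the surface, had 503 in GlyR+IVM (-0.05), 366 in DN-KATP (-0.51) and 522 in Control, so DN-KATP alone was lower. dkk3.S, of the Dickkopf family, was likewise low in DN-KATP only, with 74.6 in GlyR+IVM (-0.15), 44.2 in DN-KATP (-0.91) and 82.8 in Control. It was past 2-fold there when arrays were quantile normalized, scaled to a common median or scaled to spike-ins.

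Frizzled receptors and surface regulators were close to Control, with medians over 20 probe sets of 0.07 for GlyR+IVM and 0.06 for DN-KATP and 11 and 15 above 0. fzd7.L, a receptor of both branches in the gastrula, had 5 probe sets, whose log2 ratios ran from -0.40 to 0.19 in GlyR+IVM and from -0.47 to 0.02 in DN-KATP. Of the brighter pair, 1 had 3614 in GlyR+IVM (-0.24), 4111 in DN-KATP (-0.05) and 4258 in Control and the other 3572 in GlyR+IVM (0.19), 3159 in DN-KATP (0.01) and 3135 in Control, so they leaned opposite ways in GlyR+IVM. fzd8.S, which is expressed in the organizer and anterior ectoderm, had 4747 in GlyR+IVM (-0.05), 5560.5 in DN-KATP (0.18) and 4922 in Control on its brightest probe set. A fainter one of the same gene, at 1256 in GlyR+IVM (-0.03), 1788 in DN-KATP (0.48) and 1281 in Control, was higher in DN-KATP. fzd10 was slightly above Control throughout. fzd10.L had 466 in GlyR+IVM (0.40), 420.5 in DN-KATP (0.25) and 353 in Control, and the brighter probe set of fzd10.S had 1789 in GlyR+IVM (0.21), 1683 in DN-KATP (0.13) and 1543 in Control. fzd2.S had 762 in GlyR+IVM (-0.26), 944 in DN-KATP (0.05) and 913 in Control. fzd3.L had 489 in GlyR+IVM (-0.01), 536 in DN-KATP (0.13) and 491 in Control, close to level in both.

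The exception among receptors was fzd5.S, a Frizzled of the eye field, with 72.6 in GlyR+IVM (1.14), 22.9 in DN-KATP (-0.53) and 33.0 in Control. Only the GlyR+IVM signal was above the floor of 40, and without it the probe set would not have been compared. fzd4.S had 64.7 in GlyR+IVM (0.24), 85.5 in DN-KATP (0.64) and 54.9 in Control. The coreceptors were faint: lrp5.L had 51.8 in GlyR+IVM (-0.61), 88.4 in DN-KATP (0.16) and 78.9 in Control, and the compared probe set of lrp6.L had 46.2 in GlyR+IVM (0.55), 43.1 in DN-KATP (0.45) and 31.6 in Control. At these signals the median size of a log2 ratio over all probe sets was 0.40 for GlyR+IVM and 0.41 for DN-KATP. znrf3.S, a membrane ubiquitin ligase that clears Frizzled from the surface and is itself a Wnt target, had 319.5 in GlyR+IVM (0.26), 279.9 in DN-KATP (0.07) and 266 in Control. kremen2.S, which removes LRP6 together with Dickkopf proteins, had 322 in GlyR+IVM (0.33), 264 in DN-KATP (0.04) and 257 in Control.

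Cytoplasmic genes of the pathway leaned slightly below Control. Over 23 probe sets the medians were -0.09 for GlyR+IVM and -0.05 for DN-KATP. In these arrays 9 and 8 were above 0, and 10 were below Control in both, where 30.7% of all probe sets compared were. With quantile normalization the medians were -0.11 for GlyR+IVM and -0.06 for DN-KATP. Common-median and spike-in scaling moved both arrays down as a whole, so medians already below 0 stayed there by construction. ctnnb1, which encodes beta-catenin, had high signals and was nearly flat. ctnnb1.L had 14077 in GlyR+IVM (0.01), 12828 in DN-KATP (-0.12) and 13958 in Control on its brightest probe set, and ctnnb1.S had 11722 in GlyR+IVM (-0.20), 13452 in DN-KATP (-0.0012) and 13463 in Control. The other probe sets of ctnnb1.L disagreed in DN-KATP, with 3889 in GlyR+IVM (-0.14), 3370.3 in DN-KATP (-0.34) and 4280.0 in Control on 1 and 1691 in GlyR+IVM (0.16), 2209 in DN-KATP (0.55) and 1512 in Control on the other.

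In the destruction complex, axin2.L, a scaffold that is also a direct target of the pathway, had 5988 in GlyR+IVM (-0.07), 5588 in DN-KATP (-0.17) and 6298 in Control. axin2.S had 2559 in GlyR+IVM (-0.33), 3053 in DN-KATP (-0.07) and 3206 in Control on its brighter probe set and 323 in GlyR+IVM (0.16), 225 in DN-KATP (-0.36) and 289 in Control on its fainter one. None of these axin2 ratios reached 1.5-fold. csnk1a1.L, the casein kinase that primes beta-catenin, had 14204 in GlyR+IVM (0.13), 13508 in DN-KATP (0.05) and 13006 in Control, while both probe sets of csnk1a1.S were slightly below Control in both arrays. apc.L had 57.1 in GlyR+IVM (0.37), 43.0 in DN-KATP (-0.04) and 44.2 in Control and gsk3b.L, the kinase of the complex, 54.3 in GlyR+IVM (0.51), 49.1 in DN-KATP (0.37) and 38.1 in Control. Both were close to the floor, and axin1 and gsk3a were under it.

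Of the members compared, the lowest ratio in GlyR+IVM was that of a Dishevelled gene. A dvl3.L probe set had 174.7 in GlyR+IVM (-1.30), 554 in DN-KATP (0.36) and 431 in Control. The other dvl3.L probe set did not share the low value, with 294 in GlyR+IVM (-0.09), 414 in DN-KATP (0.41) and 312 in Control. dvl2.L had 1928 in GlyR+IVM (-0.27), 2254 in DN-KATP (-0.05) and 2328 in Control and dvl1.L was under the floor. In DN-KATP both dvl3.L probe sets were above Control to a like extent. The low value of the first one in GlyR+IVM was past 2-fold under every scaling and floor tried.

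The gamma casein kinases phosphorylate LRP6. csnk1g3.L had 129 in GlyR+IVM (0.33), 209 in DN-KATP (1.03) and 102 in Control, whereas its homeolog csnk1g3.S had 475 in GlyR+IVM (-0.57), 761 in DN-KATP (0.11) and 705 in Control. The homeologs thus differed, and the excess of csnk1g3.L over Control in DN-KATP was under 2-fold when arrays were quantile normalized or scaled to a common median or to spike-ins. csnk1g2.L had 1479 in GlyR+IVM (-0.43), 1126 in DN-KATP (-0.83) and 1998 in Control, below Control in both. csnk1d.S had 239.5 in GlyR+IVM (-0.15), 156 in DN-KATP (-0.77) and 266 in Control on its fainter probe set and 2354 in GlyR+IVM (0.07), 1998 in DN-KATP (-0.17) and 2244 in Control on its brighter one, so its distance from Control in DN-KATP depended on the probe set. The 3 probe sets of csnk1g1.S had log2 ratios between -0.12 and 0.39 in GlyR+IVM and between -0.15 and 0.16 in DN-KATP.

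Nuclear factors leaned above Control in DN-KATP, though not with the spike-in scaling (median -0.27), and were level in GlyR+IVM. Of 28 probe sets, 26 were above Control in DN-KATP (median 0.18) and 15 in GlyR+IVM (median 0.01). Over all probe sets compared, the shares above Control were 54.2% in DN-KATP and 50.9% in GlyR+IVM. The 28 stand for 16 symbols, and with 1 probe set per symbol 15 were above Control in DN-KATP and 9 in GlyR+IVM. Relative to all probe sets the medians were 0.14 in DN-KATP and 0.00 in GlyR+IVM. Common-median and spike-in scaling use a single factor per array, so they leave these differences nearly unchanged by construction. With quantile normalization, which can change them, they were 0.19 in DN-KATP and 0.02 in GlyR+IVM. The number above 0 in DN-KATP was 18 of 28 with a common median and 4 of 28 with spike-ins. The symbol tcf3 stands for the E2A factor in RefSeq, which is no TCF/LEF factor, and without its 8 probe sets 18 of 20 were above Control in DN-KATP (median 0.18) and 11 in GlyR+IVM (median 0.03). Differences were small: in DN-KATP the ratios of the 28 ran from -0.48 to 0.93, and none passed 2-fold.

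tcf7l1, the TCF that represses targets in the absence of beta-catenin, was below Control in GlyR+IVM and above it in DN-KATP in both homeologs. tcf7l1.L had 4393 in GlyR+IVM (-0.26), 5779 in DN-KATP (0.13) and 5278 in Control, and tcf7l1.S had 192 in GlyR+IVM (-0.17), 271 in DN-KATP (0.32) and 217 in Control. tcf7.S, a TCF that also activates, had 783 in GlyR+IVM (0.27), 667 in DN-KATP (0.04) and 651 in Control, and its other probe set had 402 in GlyR+IVM (0.22), 345 in DN-KATP (0.0041) and 344 in Control. It was thus higher in GlyR+IVM, where tcf7l1 was lower, and level in DN-KATP. lef1.S had 273 in GlyR+IVM (0.36), 254 in DN-KATP (0.26) and 213 in Control, and the 5 probe sets of tcf7l2.L were under the floor.

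BCL9 and Pygopus tie beta-catenin to chromatin. bcl9.L had 4967 in GlyR+IVM (0.06), 6899 in DN-KATP (0.54) and 4756 in Control on its brightest probe set and 732 in GlyR+IVM (0.15), 1017 in DN-KATP (0.62) and 661 in Control on its faintest. All 4 bcl9.L probe sets were above Control in DN-KATP, by 0.17 to 0.62 on the log2 scale. pygo2.L had 197 in GlyR+IVM (-0.17), 294 in DN-KATP (0.41) and 221 in Control and pygo2.S 428 in GlyR+IVM (0.18), 393 in DN-KATP (0.06) and 377 in Control, so the homeologs differed.

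The TLE proteins are corepressors held by TCF factors. tle4.S had 116 in GlyR+IVM (0.92), 117 in DN-KATP (0.93) and 61.4 in Control. Of the members compared it came nearest to 2-fold in both depolarized arrays, whose signals were alike. tle5.L, a short family member that dampens the others, had 729.9 in GlyR+IVM (0.58), 611 in DN-KATP (0.32) and 489 in Control, while tle5.S had 2220.3 in GlyR+IVM (0.01), 2312 in DN-KATP (0.06) and 2213 in Control. tle2.L had 2456 in GlyR+IVM (-0.10), 2934 in DN-KATP (0.15) and 2641 in Control. The excess of tle4.S was shared in part by tle5.L, while tle5.S and tle2.L were close to Control.

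SP5 genes are transcribed in response to Wnt and repress some of its targets. sp5.L had 3726 in GlyR+IVM (-0.15), 2975 in DN-KATP (-0.48) and 4139.7 in Control, whereas sp5.S had 76.6 in GlyR+IVM (-0.10), 98.9 in DN-KATP (0.27) and 82.2 in Control. sp5l.S had 25102 in GlyR+IVM (0.14), 25961 in DN-KATP (0.19) and 22777 in Control on its brightest probe set and 10479 in GlyR+IVM (-0.11), 9531 in DN-KATP (-0.24) and 11278 in Control on the next. Probe sets of this family were on both sides of Control, and none reached 1.5-fold.

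In the planar polarity core, 9 probe sets had medians of 0.15 for GlyR+IVM and 0.06 for DN-KATP, with 6 above 0 in each array, and the DN-KATP median was -0.07 when arrays were scaled to a common median and 0.17 with no floor or a floor of 100. ror2.L, the receptor of Wnt5a, had 2666 in GlyR+IVM (0.33), 2787 in DN-KATP (0.40) and 2116 in Control. prickle1.L, a cytoplasmic component of the core complex, had 3335 in GlyR+IVM (0.29), 3767 in DN-KATP (0.47) and 2728 in Control on its brighter probe set and 1590.2 in GlyR+IVM (0.15), 1792 in DN-KATP (0.32) and 1434 in Control on its fainter one. ror2.L and prickle1.L were above Control in both arrays, with DN-KATP a little above GlyR+IVM, while prickle1.S, at 2724 in GlyR+IVM (0.13), 2420.3 in DN-KATP (-0.04) and 2497 in Control, was close to level. prickle3.L had 90.9 in GlyR+IVM (0.24), 80.0 in DN-KATP (0.05) and 77.2 in Control.

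The Vangl genes encode the membrane partner of Prickle. vangl2.L had 4319 in GlyR+IVM (-0.03), 4584 in DN-KATP (0.06) and 4408 in Control, and vangl2.S had 2923 in GlyR+IVM (-0.16), 3689 in DN-KATP (0.17) and 3275 in Control. A faint probe set of vangl2.L had 57.7 in GlyR+IVM (0.40), 43.0 in DN-KATP (-0.03) and 43.8 in Control. vangl1.L was below Control in GlyR+IVM, with 289.9 in GlyR+IVM (-0.45), 365 in DN-KATP (-0.12) and 397 in Control. No Vangl probe set was above Control by more than 0.40 on the log2 scale, celsr2.L was under the floor, and no probe set of celsr1 was among the members.

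Probe sets of a symbol, and homeologs of a gene, give the only repeated view of a member on these arrays, although they share the RNA of an array. For 18 symbols with more than 1 probe set compared, the median spread of log2 ratios was 0.33 for GlyR+IVM and 0.24 for DN-KATP, and the widest was 1.22 in GlyR+IVM (dvl3.L) and 0.89 in DN-KATP (ctnnb1.L). Over 12 genes with both homeologs compared, the median difference between L and S was 0.22 in each array, and the widest, that of csnk1g3, was 0.90 (GlyR+IVM) and 0.92 (DN-KATP). By comparison, the SD of the members' log2 ratios was 0.36 (GlyR+IVM) and 0.33 (DN-KATP). All probe sets of a symbol lay on 1 side of Control in each array for 5 of the 18 symbols: fzd10.S, prickle1.L and tcf7.S above it, csnk1a1.S below it, and dvl3.L below it in GlyR+IVM and above it in DN-KATP.

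**Figure D3:**
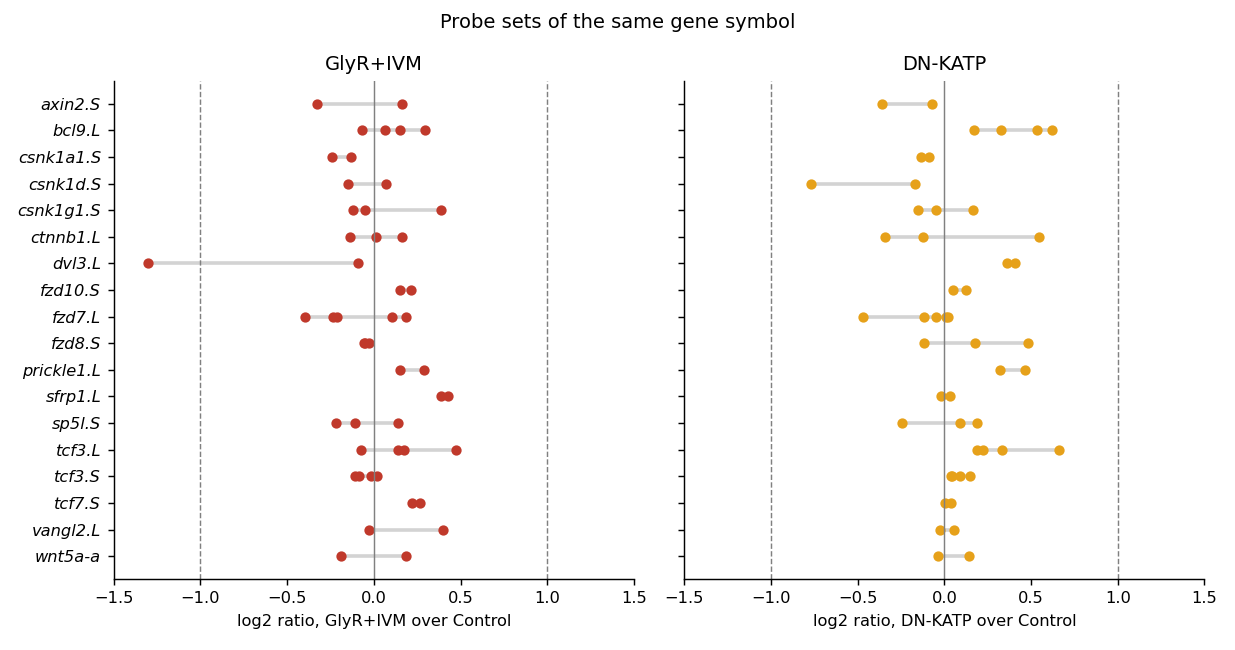
Log2 ratio to Control of each compared probe set of the 18 Wnt pathway symbols with more than 1, in GlyR+IVM (left) and DN-KATP (right); grey lines join probe sets of a symbol and dashed lines mark 2-fold. The spread is widest for dvl3.L in GlyR+IVM (1.22) and for ctnnb1.L in DN-KATP (0.89).

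The size of the ratios fell as the signal rose over all probe sets, and less evenly among the members. Between mean signals of 40 and 100, the 19 members had a median absolute log2 ratio of 0.40 for GlyR+IVM and 0.32 for DN-KATP, against 0.40 (GlyR+IVM) and 0.41 (DN-KATP) over all probe sets of that range. From 100 to 300 it was 0.19 (GlyR+IVM) and 0.29 (DN-KATP) over 14 members, against 0.30 and 0.32 over all. From 300 to 1000 it was 0.23 (GlyR+IVM) and 0.12 (DN-KATP) over 18 members, against 0.24 and 0.26 over all. From 1000 to 3000 it was 0.17 (GlyR+IVM) and 0.15 (DN-KATP) over 21 members, against 0.20 in each array over all. Above 3000 it was 0.14 (GlyR+IVM) and 0.13 (DN-KATP) over 23 members, against 0.17 (GlyR+IVM) and 0.16 (DN-KATP) over all, and the largest member ratio there was 0.29 for GlyR+IVM and 0.54 for DN-KATP. Many probe sets with high signals, such as the brightest of ctnnb1, csnk1a1, sp5l, axin2, wnt11b, fzd7 and fzd8, thus stayed near Control. Others above 3000 lay further from it in DN-KATP, among them probe sets of bcl9.L (0.54), sp5.L (-0.48) and prickle1.L (0.47). Of the 4 members past 2-fold in GlyR+IVM, 3 had a mean signal under 100.

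**Figure D4:**
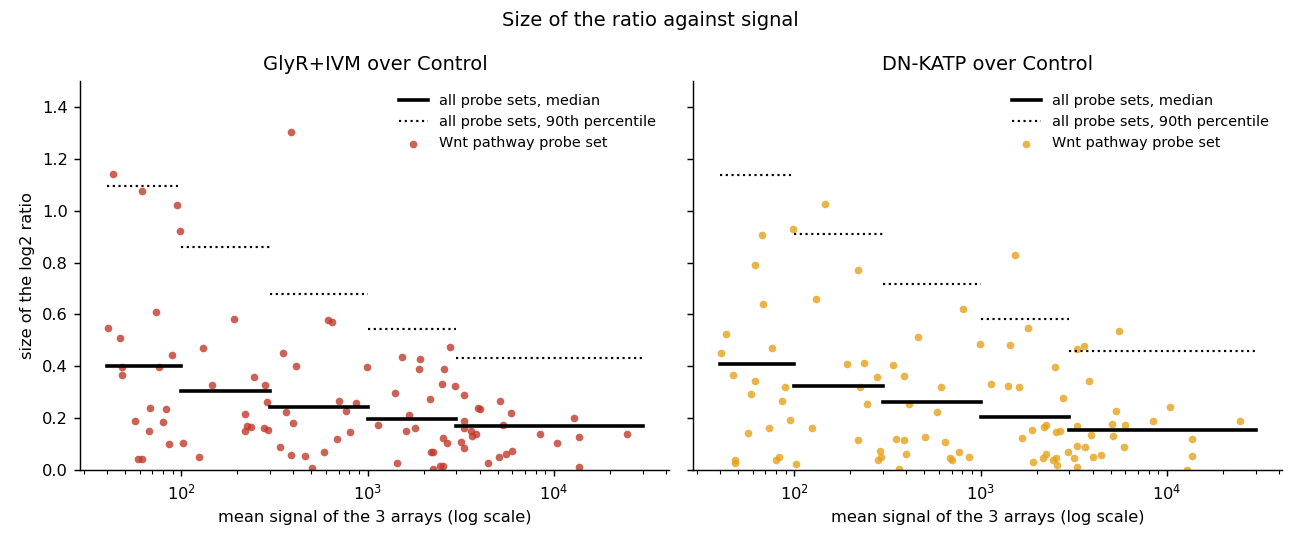
Absolute log2 ratio to Control against the mean signal of the 3 arrays (log scale) for Wnt pathway probe sets, in GlyR+IVM (left) and DN-KATP (right). Solid and dotted lines give the median and the 90th percentile of all probe sets in each signal range; the GlyR+IVM point of dvl3.L, at 1.30, stands well above the dotted line of its range.

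Of 36 further pathway genes listed outside the symbol rule, 24 had a probe set compared (62 probe sets). In GlyR+IVM 1 of the 62 was at least 2-fold above Control, a probe set of tnks.S, whose product tankyrase marks axin for destruction, with 127 in GlyR+IVM (2.78), 26.3 in DN-KATP (0.51) and 18.5 in Control. That probe set reached the mean of 40 only through GlyR+IVM, so it could not have been compared without a high signal there. Its other probe set had 110.2 in GlyR+IVM (0.27), 152 in DN-KATP (0.73) and 91.5 in Control. In DN-KATP 1 was at least 2-fold above Control, a probe set of the kinase gene mapk8.L with 65.4 in GlyR+IVM (0.98), 66.4 in DN-KATP (1.00) and 33.1 in Control. Its other probe set, at 1276 in GlyR+IVM (0.02), 1199 in DN-KATP (-0.07) and 1258 in Control, was level. None of the 62 was at least 2-fold lower in either array. For comparison, 3.62% of all probe sets compared were at least 2-fold higher in GlyR+IVM and 2.27% lower. In DN-KATP these shares were 4.22% and 2.2%.

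Probe sets of the Wnt export genes wls and porcn, and of notum, which acts on ligands after export, lay below Control in both depolarized arrays. This held in 4 of 4 probe sets, with medians of -0.36 for GlyR+IVM and -0.33 for DN-KATP. Relative to all probe sets the medians were -0.37 in each array. wls.L, the carrier that brings Wnt proteins to the cell surface, had 1462 in GlyR+IVM (-0.41), 1343 in DN-KATP (-0.53) and 1946 in Control, and wls.S had 1049 in GlyR+IVM (-0.30), 1119 in DN-KATP (-0.21) and 1296 in Control. porcn.L, the acyltransferase that lipidates Wnt proteins, had 251 in GlyR+IVM (-0.46), 280.0 in DN-KATP (-0.30) and 345 in Control. notum.L, in contrast to these an enzyme that inactivates released ligands, had 199.9 in GlyR+IVM (-0.11), 168 in DN-KATP (-0.36) and 215 in Control. The ligand probe sets above leaned the other way. None of the 4 probe sets passed 1.5-fold, and 30.7% of all probe sets were below Control in both arrays.

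Canonical target genes lay above Control in GlyR+IVM in 17 of 19 probe sets (median 0.30, but -0.13 with the spike-in scaling). In DN-KATP 12 did (median 0.05, but -0.08 with a common median and -0.40 with spike-ins). Relative to all probe sets the medians were 0.29 (GlyR+IVM) and 0.01 (DN-KATP). Of 12 listed target genes, 10 had a probe set, and sia1, sia2 and en2 were under the floor. The 19 probe sets thus stand for 7 genes, several of them with repeated probe sets. Without probe sets whose names end in _s_at, _x_at or _a_at, which drops all of myc, 10 of 11 were above Control in GlyR+IVM (median 0.30). In DN-KATP 6 of the 11 were (median 0.0031). myc.S, a growth regulator, had 4298 in GlyR+IVM (0.81), 3233 in DN-KATP (0.40) and 2454 in Control on the probe set with its largest ratios. Its 4 compared probe sets agreed in order. Its homeolog myc.L was closer to Control, with 6546 in GlyR+IVM (0.21), 5242 in DN-KATP (-0.11) and 5669 in Control on its brighter probe set. The fainter one had 4758 in GlyR+IVM (0.27), 4100 in DN-KATP (0.05) and 3948 in Control. cdx1.S, a caudal factor of posterior tissue, had 8003 in GlyR+IVM (0.46), 5983 in DN-KATP (0.04) and 5809.9 in Control on its brightest probe set. Its other probe sets disagreed, with 819 in GlyR+IVM (0.59), 625 in DN-KATP (0.20) and 542 in Control on 1 and 309 in GlyR+IVM (-0.17), 332 in DN-KATP (-0.07) and 348 in Control on the other. ccnd1.L, a cyclin, had 8317 in GlyR+IVM (0.36), 5972 in DN-KATP (-0.12) and 6483 in Control. msgn1.L, of presomitic mesoderm, had 2915 in GlyR+IVM (0.32), 2116 in DN-KATP (-0.14) and 2330.4 in Control. In ccnd1.L and msgn1.L, GlyR+IVM was above Control and DN-KATP slightly below it. In 16 of the 19 probe sets GlyR+IVM was above DN-KATP, with a median log2 ratio of 0.32 between them. Over all probe sets compared, the share was 46.8% and the median -0.03. Targets among the members lay on both sides of Control in GlyR+IVM: axin2.L (-0.07) and sp5.L (-0.15) were below it, znrf3.S (0.26) was above it, and the probe sets of axin2.S and of sp5l.S were split. Mesoderm markers summed to less in both depolarized arrays than in Control, as given above. Both homeologs of the mesoderm marker tbxt, which is not on the target list, were below Control. Their log2 ratios were -0.39 and -0.41 in GlyR+IVM and -0.18 and -0.68 in DN-KATP. Of the 9 mesoderm probe sets, 3 were above Control in each array. The part of mesoderm markers here was not tested.

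**Figure D5:**
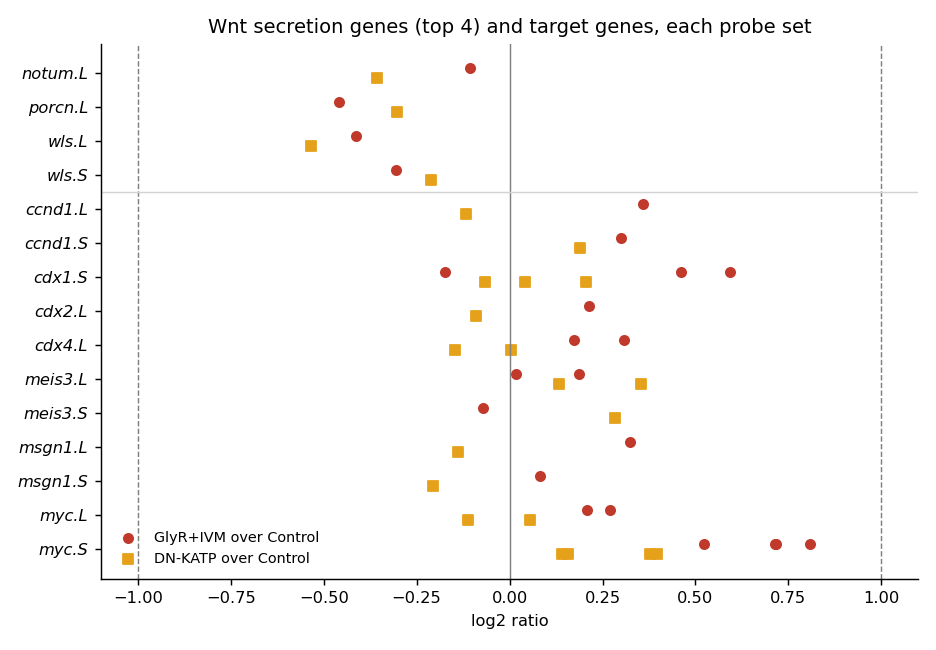
Log2 ratio to Control of each compared probe set of Wnt export genes and notum (top) and of canonical target genes (below). Circles are GlyR+IVM, squares are DN-KATP and dashed lines mark 2-fold. All 4 export and notum probe sets lie below 0 in both arrays. Of 19 target probe sets, from 7 genes, 17 lie above 0 in GlyR+IVM against 12 in DN-KATP.

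Noncanonical effectors and coreceptors were mixed, with 17 of 25 probe sets above Control in GlyR+IVM, 15 of 25 in DN-KATP, and a median of 0.06 in each. daam1.S, a formin that acts downstream of Dishevelled, was above Control on each of its 4 probe sets in both arrays. Its brighter ones had 1109 in GlyR+IVM (0.13), 1448 in DN-KATP (0.51) and 1015 in Control, and 667 in GlyR+IVM (0.71), 683 in DN-KATP (0.75) and 407 in Control. Of 13 probe sets of the destruction complex and its regulators, 5 were above Control in GlyR+IVM, with 6 in DN-KATP, at medians of -0.18 (GlyR+IVM) and -0.07 (DN-KATP).

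The 32 members under the floor had signals too low for a ratio to be read. Among them were dkk2.L, with 24.1 in GlyR+IVM, 28.5 in DN-KATP and 10.4 in Control, and kremen1.S, with 21.1 in GlyR+IVM, 15.7 in DN-KATP and 3.53 in Control. Both were over 2-fold above Control in both arrays by their signals alone, in a range where no present or absent call was at hand. wnt2b.L was over 2-fold below it in both, with 3.90 in GlyR+IVM, 3.82 in DN-KATP and 21.4 in Control. With no floor, 5 of 127 members were at least 2-fold above Control in both, against 2163 of 32539 probe sets. At least 2-fold below it in both was 1 member, against 775 probe sets.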

How the data were processed

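RNA of 3 pools of embryos was hybridized to 1 array each. The authors deposited linear signal intensity values, made by MAS5 with Bioconductor packages in R and scaled within each array; the version of MAS5 is not given in the sources used here, and present calls were not used. The values were taken as deposited, and 96 control probe sets were left out. Genes were named from the platform annotation, for probe sets with a single symbol; 80 of 82 member symbols matched RefSeq. Probe sets with a mean signal of at least 40 were compared as log2 ratios, and a ratio was counted at 2-fold with the higher signal at least 40, after the fold threshold in the study's methods. The count rule was tested on simulated data. The members and lists were chosen with earlier results of these data known. Named were members past 2-fold and a fixed list of core pathway genes; other genes were chosen after their values were seen. Alternatives were signal floors, fold thresholds, 3 other scalings, an offset of 32, probe sets whose names end in _s_at, _x_at or _a_at left out, and 1 probe set per symbol. Python 3.11.15, numpy 2.4.6 and pandas 2.3.3 were used.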

Additional observations from a re-analysis of the deposited data

How the results depend on the processing

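The main counts of members past 2-fold were 3 higher and 1 lower in GlyR+IVM, 1 higher and 0 lower in DN-KATP, and 0 in both. With no floor they were, of 127 members, 12 higher and 8 lower in GlyR+IVM, 10 higher and 4 lower in DN-KATP, and in both 5 higher (axin1.S, wnt6.S, wnt7b.L, kremen1.S and dkk2.L) and 1 lower (wnt2b.L). Of all 32539 probe sets, 3870 were then higher and 2548 lower in GlyR+IVM, with 3969 and 2266 in DN-KATP. In both arrays, 2163 of them were higher and 775 lower. With a floor of 20, of 104 members, 6 were higher and 3 lower in GlyR+IVM, 3 higher and 1 lower in DN-KATP, and 1 (dkk2.L) higher in both. Of all 25414 probe sets past that floor, 1501 were higher and 907 lower in GlyR+IVM. In DN-KATP 1641 were higher and 767 lower, and 778 were higher in both arrays. With a floor of 100, 0 were higher in GlyR+IVM, against 370 of all 16202 probe sets past it, and the planar polarity median in DN-KATP was 0.27. At 1.5-fold, 2 were lower in GlyR+IVM, 6 higher and 3 lower in DN-KATP and 2 higher in both, and at 3-fold 0 were higher or lower in GlyR+IVM and 0 higher in DN-KATP. Of all 21143 probe sets compared, 197 were 3-fold higher and 137 lower in GlyR+IVM, and 230 were higher in DN-KATP.

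With quantile normalization, 1 was higher in GlyR+IVM (fzd5.S), and in DN-KATP 0 were higher and 1 lower (dkk3.S). With a common median, 2 were higher in GlyR+IVM (wnt5a.S and fzd5.S), and in DN-KATP 0 were higher and 1 lower (dkk3.S), where the medians were -0.0375 for all members, 0.00894 for the canonical and 0.0421 for the planar polarity branch. Of all 21147 probe sets, 649 were then higher and 559 lower in GlyR+IVM, with 645 and 670 in DN-KATP. With 27 hybridization spike-in probe sets, 0 were higher and 2 lower (dvl3.L and lrp5.L) in GlyR+IVM, and 0 higher and 3 lower (csnk1d.S, csnk1g2.L and dkk3.S) in DN-KATP. The medians were then -0.37 (GlyR+IVM) and -0.36 (DN-KATP) for all members, -0.36 (GlyR+IVM) and -0.32 (DN-KATP) for the canonical and -0.24 (GlyR+IVM) and -0.28 (DN-KATP) for the planar polarity branch. Over all probe sets this scaling gave 255 higher and 1811 lower in GlyR+IVM, with 301 and 1914 in DN-KATP, against 765 higher and 479 lower in GlyR+IVM, with 893 and 466 in DN-KATP, as deposited, and the cause was not tested. With 32 added to every signal, 0 were higher in GlyR+IVM and 0 in DN-KATP, against 312 and 390 of all 21143 probe sets.

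Setting aside probe sets whose names end in _s_at, _x_at or _a_at, or keeping 1 probe set per symbol, changed none of the main counts. No paired analysis was possible because each condition had 1 array. Low signals limit the ratios of members close to the floor, such as lrp6.L, fzd5.S, gsk3b.L and apc.L.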
